A study of Homo sapiens with 9 samples.

Results

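The comparison covered here is WX-02-23 against its vehicle DMSO, read as graded strength of open chromatin and not only as presence or absence of a peak. It uses the 6 ATAC-seq peak lists labelled with these treatments, 3 per group, out of 9 lists in the series. The cells were 22Rv1, a human prostate carcinoma line, gene-edited to express C1111S-SF3B1. SF3B1 is a spliceosome protein, and C1111S puts serine in place of a cysteine. All libraries of both groups share this edit. DMSO was given at 0.1% and WX-02-23 at 20 µM, and treatment lasted 3 h in both groups. The labels do not say whether the edited line is 1 clone, or whether replicates came from separate cultures, so the p-values below speak for the scatter among these libraries, part of which may be technical. A further 3 lists from cells given WX-02-43, also at 20 µM for 3 h, serve below as a point of reference.

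FOXA1 is a forkhead transcription factor of prostate and other epithelia. It is called a pioneer factor because it can bind its sites in closed chromatin and help to open them, which lets other factors such as the androgen receptor bind nearby. ATAC-seq reads open chromatin through a transposase that inserts sequencing adapters where DNA is exposed, so a stronger peak means more insertions at that place. The study is about small molecules that bind FOXA1 covalently, and its labels call WX-02-23 and WX-02-43 stereoprobes. A gene annotation of the genome build was not used here, so regions are given by their position in hg19, without gene names, and the marker loci of prostate cells were not checked.

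The 6 lists held 81962 to 105132 peaks on chromosomes 1 to 22 and X. The commonest background was 1 to 1.33 fragments and the median summit 21 to 24 fragments, where a fragment is a unit stacked by the peak caller. The groups were also compared on 4 properties of whole lists. The median fold enrichment of a list was 7.08 ± 0.201 with WX-02-23 and 7.25 ± 0.199 in DMSO (SD, n = 3 each; exact two-sided permutation p = 0.4, adjusted p = 0.933). The median peak width was 325.7 ± 5.51 bp and 328.7 ± 4.04 bp (exact permutation p = 0.7, adjusted p = 0.933). Peak number was 96034 ± 7921 and 91065 ± 9568, and peaks per region held 1.06 in both groups (exact permutation p = 0.5 and 1, adjusted p = 0.933 and 1). With 3 lists against 3, p cannot fall below 0.1. Spearman's rho of peak strength was 0.92 to 0.926 in the 3 DMSO pairs, 0.92 to 0.927 in the 3 WX-02-23 pairs and 0.878 to 0.891 in the 9 mixed pairs, a description over regions that share libraries.

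After merging, the 6 lists made up 123416 regions, 362 bp wide at the median. All 6 lists held 63111 of them (51.1%), and these wider regions (median 583 bp) allow strength to be compared in every library. The remaining regions lacked a peak in at least 1 library. Regions held by 3 WX-02-23 lists and no DMSO list numbered 2289 (1.85% of all merged regions), and the opposite pattern numbered 970 (0.786%). Between these extremes lay graded cases. All 3 WX-02-23 lists but a single DMSO list held 2692 regions, and 3 and 2 lists held 5366. In the other direction, all 3 DMSO lists but a single WX-02-23 list held 1797 regions, and 3 and 2 lists held 3715. The excess on the WX-02-23 side depended on list length. In lists shortened to the same length, 1805 regions had 3 WX-02-23 and no DMSO list, against 1464 with the opposite pattern. The graded cases then turned to the DMSO side, with 1838 against 1939 regions for 3 and 1 lists and 3486 against 3919 for 3 and 2 lists.

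**Figure D1:**
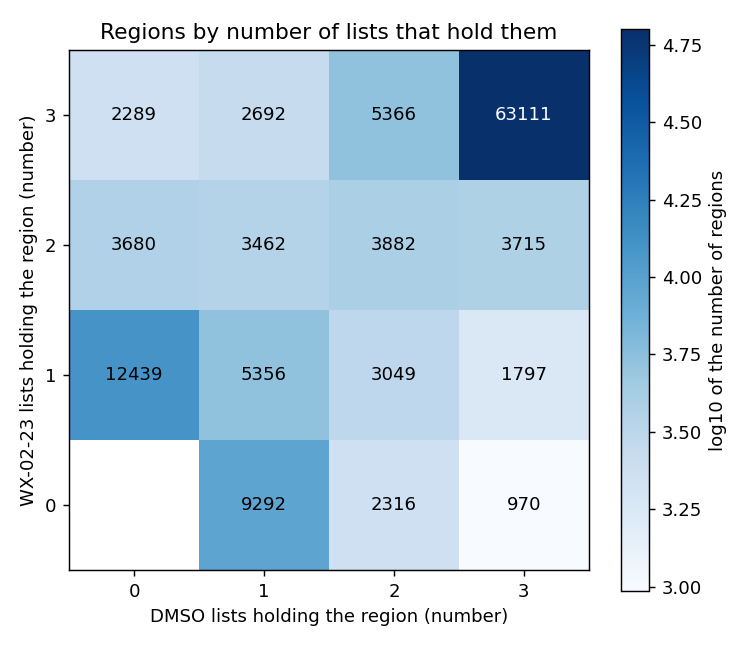
Number of merged regions by how many DMSO lists (horizontal axis) and WX-02-23 lists (vertical axis) hold them, with the colour giving the log10 of that number. All 6 lists hold 63111 regions, 2289 regions are held by 3 WX-02-23 lists and no DMSO list, and 970 show the opposite.

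Regions held by fewer lists were also weaker where they were held. The whole-list percentile places each peak among all peaks of its list by the authors' p-value, with the strongest at 100. For WX-02-23 peaks its median was 25.7 where no DMSO list held the region, 26.3 with 1 DMSO list, 29.5 with 2 and 66.5 with 3. DMSO peaks in those regions had medians of 16, 23.2 and 64.9 with 1, 2 and 3 DMSO lists. Where a single DMSO list held the region, its peak ranked below all 3 WX-02-23 peaks in 1204 of 2692 regions (44.7%) and above all 3 in 385 (14.3%). Where a single WX-02-23 list held the region, its peak ranked below all 3 DMSO peaks in 677 of 1797 regions (37.7%) and above all 3 in 327 (18.2%). The regions were selected for missing peaks in the group with a single list, so a weaker remaining peak is partly built in, and the percentiles come from lists of unequal length. These shares are therefore only a description. Over these regions, median summits held 12 to 15 fragments in the lists with a peak.

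The first regions of this kind, ranked by their strength in the full group, were far from weak there. At chr8:93370770-93371452, fold enrichment was 15.9, 13.4 and 16.4 in WX-02-23 replicates 1 to 3, and only DMSO replicate 1 had a peak, of 6.53. The summits held 46, 33 and 42 fragments against 13. At chr7:18688828-18689438, WX-02-23 reached 12.1, 13.5 and 13.7 fold and only DMSO replicate 3 had a peak, of 4.93. Each of these regions was also held by all 3 WX-02-43 lists, at 5.45 to 7.47 fold and 6.26 to 8.3 fold. The next were chr7:8530190-8530739 (12.4 ± 0.832 fold with WX-02-23, SD, n = 3; 5.75 in DMSO replicate 2) and chrX:31334121-31334961 (12.3 ± 1.33 fold; 6.72 in DMSO replicate 3).

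In the other direction, chr4:169422389-169422959 had folds of 11.3, 13.1 and 15.9 in DMSO replicates 1 to 3 and 4.76 in WX-02-23 replicate 3 alone. Its summit held 27, 32 and 49 fragments in DMSO against 9. At chr12:61053971-61054468 the DMSO folds were 11.7, 12.3 and 14.3 and WX-02-23 replicate 3 had 5.72. The regions chr13:80801316-80801824 (11.9 ± 0.752 fold in DMSO, SD, n = 3) and chr10:70261333-70261857 (11.5 ± 0.974 fold) had a peak of 4.72 fold in WX-02-23 replicate 1 alone. WX-02-43 libraries held these 4 regions at 10.2 to 14.3 fold, within or near the DMSO range. The regions of both directions were ranked on the group that had to hold them. High values in that group and a lower value in the other were therefore built into the choice.

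For the 63111 regions held by all 6 lists, strength was ranked in each library over the same regions. A percentile of 100 is the strongest, and ranks were turned into normal scores (standard deviation units) for the fit. WX-02-23 raised 1611 regions (2.55%) and lowered 1290 (2.04%) at a limma adjusted p under 0.05, 4.60% of regions in all. Without the trend and robust settings of the fit, 373 and 303 passed, and where each list's peaks had to cover 50% of a region, 987 and 819. In the raised regions the median percentile went from 27.4 in DMSO to 62.5 with WX-02-23, with a median gain of 29.6 points (quartiles 23.2 and 36.2). In the lowered regions it went from 63.2 to 29.6, a median change of -29 points (quartiles -35 and -21.7). The whole set of tested regions had a median change of -0.12 points (quartiles -4.64 and 4.28). Percentiles of the groups did not overlap in 1584 of the 1611 raised and 1273 of the 1290 lowered regions. Over all tested regions they did not overlap in 6012 (9.53%) with WX-02-23 above and 6062 (9.61%) with WX-02-23 below. A region that fell below the calling threshold in any library is not among those tested here.

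Expressed as fragments, the typical raised region went from a mean of 20 at the DMSO summit to 36.3 with WX-02-23, and the typical lowered region from 38 to 21.7 (medians over regions). All tested regions stood at 31.7 in both groups. Raised regions were 55.5% of these calls. With ranks over the whole lists, which differ in length, 1178 were raised (1.87%) and 568 lowered (0.900%), so 67.5% of calls were raised and the balance of directions depends on the scaling. It depends on single libraries too. Leaving out DMSO replicate 1 gave 1366 raised and 820 lowered regions, replicate 2 gave 1275 and 806, and replicate 3 gave 1380 and 760. Leaving out WX-02-23 replicate 1 gave 895 raised and 999 lowered, and replicate 3 gave 959 and 1031, so raised regions became the minority, at 47.3% and 48.2% of calls.

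**Figure D2:**
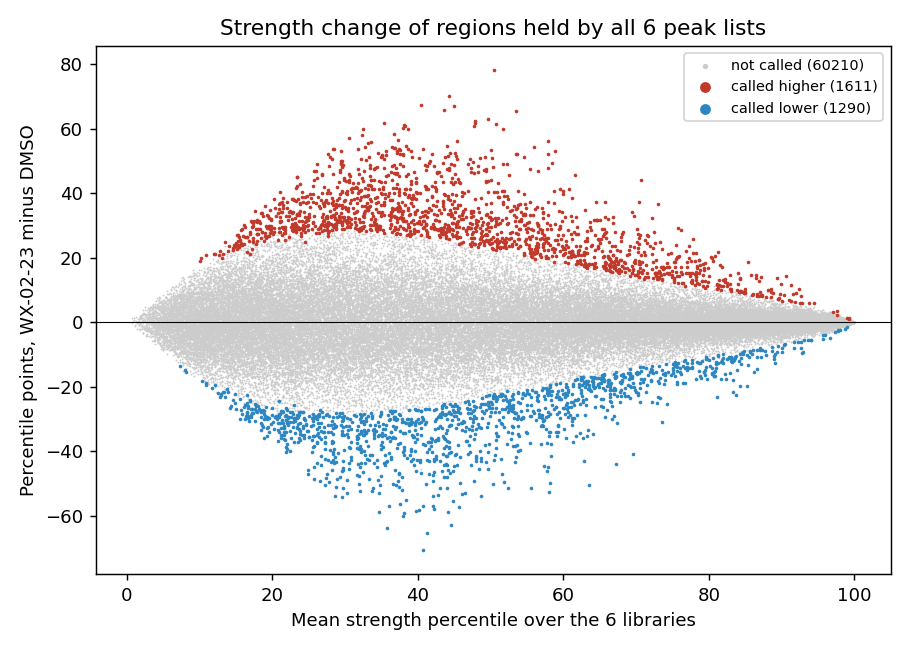
Each point is 1 of the 63111 regions held by all 6 lists, placed by its mean strength percentile over the 6 libraries (horizontal axis) and by the difference in mean percentile, WX-02-23 minus DMSO, in percentile points (vertical axis). Red points are the 1611 regions called higher, blue points the 1290 called lower. Calls of both directions are sparse at both ends of the strength axis.

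The calls were also counted by strength. Cut into 10 deciles by mean percentile over the 6 libraries, with decile 10 the strongest, decile 4 had the highest share of raised regions (287 of 6311, 4.55%) and decile 5 the highest share of lowered regions (217 of 6311, 3.44%). Decile 10 had 24 raised (0.38%) and 25 lowered regions (0.396%). Decile 1 had 10 and 16 of 6312 (0.158% and 0.253%), and there the median standard error of the score difference was 0.426, against 0.138 in decile 10. The mean that sets the decile includes the changed libraries, so a region that moves far in rank falls towards the middle by construction, and the differences between deciles are a description only.

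**Figure D3:**
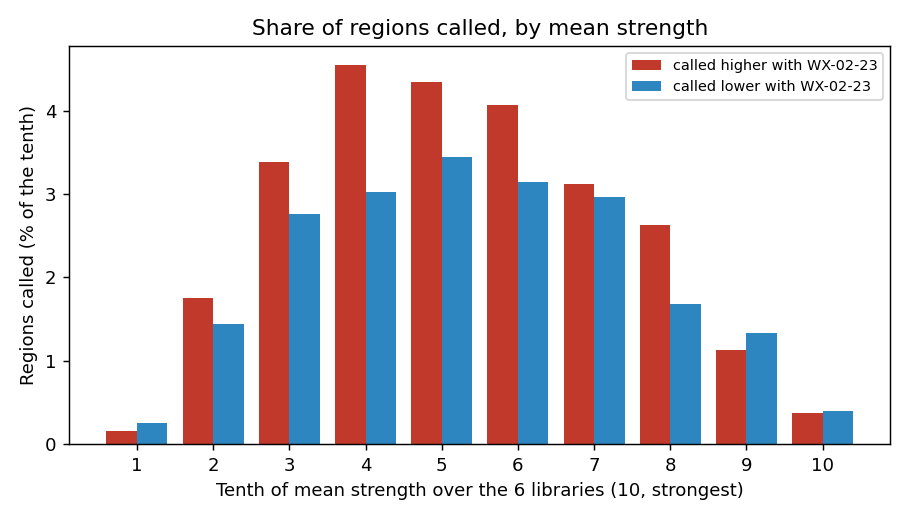
Share of tested regions called higher (red) or lower (blue) with WX-02-23, in percent, for each decile of regions by mean strength over the 6 libraries (10, strongest). Raised regions peak at 4.55% in decile 4 and lowered regions at 3.44% in decile 5, and both are under 0.5% at the ends.

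The 10 raised regions with the widest gap between groups were near the foot of the ranking in DMSO and in its middle with WX-02-23. Regions, raised or lowered, could be named only if their groups did not overlap, so the separation at each follows from the choice. At chr10:8644510-8645090, the percentile was 1.21, 1.91 and 1.51 in DMSO replicates 1 to 3 and 51.4, 53 and 61.2 in WX-02-23 replicates 1 to 3. Its summit held 9, 10 and 11 fragments in DMSO and 29, 23 and 29 with WX-02-23 (score difference 2.3, SE 0.33, limma adjusted p = 1.93e-05). The treated libraries held about as many fragments as the median peak of a list, and the DMSO libraries 9 to 11.

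At chr4:24806652-24807128, DMSO percentiles were 2.52, 4.11 and 1.12 and WX-02-23 percentiles 58.6, 67.3 and 61.4 (score difference 2.31, SE 0.31, limma adjusted p = 4.96e-06). Fold enrichment there was 5, 5.75 and 5.24 in DMSO and 11.3, 12.5 and 11.8 with WX-02-23. The groups were well apart on either measure. At chr1:249217569-249218125, percentiles were 0.586, 3.29 and 2.35 in DMSO and 66.3, 54.7 and 56.3 with WX-02-23. Here the summit rose from 10, 13 and 14 fragments to 45, 29 and 33 (limma adjusted p = 1.1e-05 for the rank). The DMSO and WX-02-23 values did not overlap.

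Regions whose folds were low for the fragments they held rose as well. At chr13:44926435-44927144 the fold was only 4.04, 3.72 and 4.11 in DMSO and 6.87, 7.27 and 7.49 with WX-02-23, yet the summits held 16, 15 and 21 against 48, 39 and 45 fragments (limma adjusted p for the rank 2.31e-05). At chr8:117004406-117005237 they held 17, 20 and 22 against 53, 40 and 45 fragments (adjusted p = 8.37e-05, limma). There some list held more than 1 peak, and the strongest peaks lay apart. Their summits were 773, 454 and 468 bp from the region's start in DMSO and 213, 166 and 212 bp with WX-02-23. The other 5 raised regions were chr12:44922115-44922641, chr1:144972146-144972549, chr22:24519252-24519988, chr1:190341180-190341744 and chr20:22994103-22994507. Over all 10, DMSO percentiles ran from 0.219 to 5.21 and WX-02-23 percentiles from 33.7 to 67.3. All 10 also passed the test on fold enrichment, against 0.955% of all tested regions called higher for fold. Exactly 1 peak in each list was found at 8 of them, near the 80.6% of all tested regions.

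The 10 lowered regions with the widest gap were the reverse. At chr5:135830365-135831111, percentiles were 70, 76 and 82 in DMSO replicates 1 to 3 and 6.65, 2.18 and 7.4 in WX-02-23 replicates 1 to 3. Its summit held 36, 44 and 58 fragments in DMSO and 14, 9 and 12 with WX-02-23 (score difference -2.37, SE 0.25, limma adjusted p = 6.18e-08). Every treated library was far below every vehicle library, as the choice by gap required.

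At chr3:25639104-25639983, percentiles were 65.7, 67 and 70.1 in DMSO and 1.37, 1.21 and 9.03 with WX-02-23 (score difference -2.39, SE 0.3, limma adjusted p = 2.18e-06). Fragments went from 40, 45 and 54 to 16, 12 and 17. This region did not hold exactly 1 peak in each list, and the strongest peak was used. Its summit lay 236, 236 and 296 bp from the region's start in DMSO and 521, 164 and 543 bp with WX-02-23. The 3 WX-02-43 libraries held 49, 57 and 60 fragments there, above each WX-02-23 library. At chr8:121493285-121493778, folds of 12.9, 14.5 and 14.5 in DMSO stood against 6.87, 5.99 and 6.19 with WX-02-23 (limma adjusted p for fold = 0.000283). At this last region the peak also narrowed, from 394, 401 and 493 bp to 218, 188 and 186 bp (limma adjusted p for width = 0.0218).

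The region chr9:105176584-105177008 fell from 25, 20 and 34 fragments to 12, 8 and 10, and chr3:140947257-140947661 from 45, 48 and 52 to 28, 23 and 23. The other lowered regions were chr8:88317794-88318628, chr7:123435936-123436405, chr1:178872996-178873852, chr12:116482023-116482502 and chr6:51403630-51404338. At 6 of the 10 lowered regions each list held exactly 1 peak, against 80.6% of all tested regions. Elsewhere the strongest peaks could lie apart. At chr8:88317794-88318628 their summits were 390, 373 and 365 bp from the region's start in DMSO and 742, 719 and 378 bp with WX-02-23. At chr1:178872996-178873852 they were 470, 467 and 477 bp against 478, 98 and 108 bp. Over all 10, DMSO percentiles ran from 25.5 to 82 and WX-02-23 percentiles from 0.36 to 9.52. Each of the 10 was lower in fold as well (limma adjusted p 0.000283 to 0.00649), against 0.895% of all tested regions called lower for fold. The rule behind these names ranks the gap in score, which favours regions close to the calling threshold in one group.

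**Figure D4:**
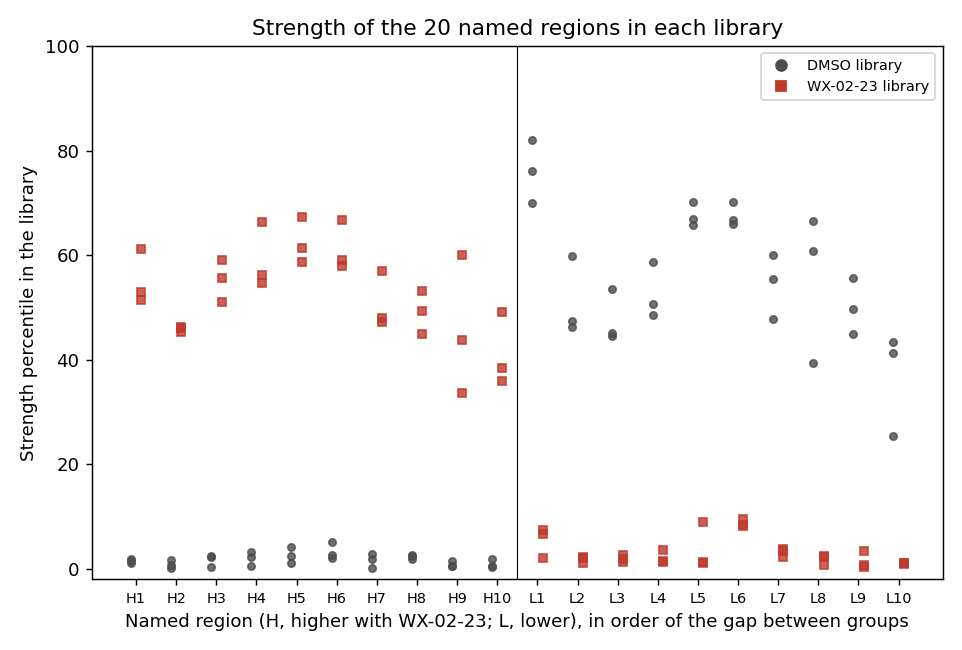
Strength percentile (vertical axis, 100 the strongest) of the 20 named regions in each DMSO library (grey circles) and each WX-02-23 library (red squares). H1 to H10 are the raised and L1 to L10 the lowered regions in order of the gap between groups. DMSO libraries stay at or below 5.21 in the raised regions, and WX-02-23 libraries at or below 9.52 in the lowered ones.

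Fold enrichment gave fewer calls. It is the summit pileup over the local background of the same library, with 1 added to each, as recovered from the deposited values. With each library centred on its median, 603 regions were higher (0.955%) and 565 lower (0.895%) with WX-02-23 (limma adjusted p under 0.05). Of these, 592 and 531 were also called for rank in the same direction, 98.2% and 94% of the fold calls and 36.7% and 41.2% of the rank calls. None was called for rank in the opposite direction. The same sign held for 1611 of 1611 raised and 1289 of 1290 lowered regions, and for 56814 of all 63111 regions tested. Rank and fold come from the same pileup, so this is no independent support. The median log2 fold difference was 0.482 in raised and -0.492 in lowered regions, against 0.00237 over all regions tested. Without centring, 66 and 49 regions passed, and without DMSO replicate 1, 276 and 161. Without DMSO replicate 3 the lower count was 278, and without WX-02-23 replicate 1 the higher count was 350.

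Peak width moved with strength. It was tested in the 50853 regions with exactly 1 peak in each list, of which 77 were wider (0.151%) and 43 narrower (0.0846%) with WX-02-23 (limma adjusted p under 0.05). In the wider regions, the median width over regions was 243.3 bp in DMSO and 555.7 bp with WX-02-23. In the narrower ones it was 530.3 and 214.3 bp. Of the wider regions 44 were also raised in rank and none lowered, and of the narrower ones 24 were lowered and none raised. Raised regions with a single peak had median widths of 368.2 bp in DMSO and 482.5 bp with WX-02-23, and 90.8% of them were wider on average, against 44.4% of all single-peak regions. Width is measured on the same pileup as strength and is not independent of it. No width call remained without centring, without DMSO replicate 1 or without WX-02-23 replicate 1 (limma). At an unadjusted limma p under 0.05, these fits in turn had 2059 wider and 1539 narrower, 2162 and 1908, and 2098 and 2209 of 50853 regions. The main fit had 2245 and 2236 at that threshold, and part of such counts arises by chance. Leaving out DMSO replicate 2 or 3 gave 41 and 51 wider and 16 and 10 narrower regions. Without WX-02-23 replicate 2 or 3, narrower regions became the majority, at 24 and 10 against 14 and 6 wider.

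The named examples show how far intervals extended. At chrX:46637314-46638079 the peak spanned 179, 150 and 154 bp in DMSO replicates 1 to 3 and 766, 539 and 600 bp in WX-02-23 replicates 1 to 3 (log2 difference 1.95, SE 0.17, limma adjusted p = 0.0103). Its rank did not pass the test (limma adjusted p = 0.195), although the percentiles of 3.46, 4.11 and 1.51 in DMSO lay below the 29, 8.38 and 21.4 with WX-02-23. At chr14:48771196-48771699 widths were 150, 175 and 160 bp against 476, 447 and 412 bp. The rank there also missed the threshold (limma adjusted p = 0.43), and the summits held at most 12 fragments in DMSO and 16 with WX-02-23. At chr8:61166398-61167317 both measures passed, with widths of 193, 313 and 330 bp against 814, 905 and 881 bp. The fourth, chr3:101881764-101882546, went from 183, 260 and 287 bp to 783, 610 and 656 bp.

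Among narrower regions, chr7:117033031-117033770 went from 627, 678 and 740 bp in DMSO to 248, 169 and 207 bp with WX-02-23 (log2 difference -1.75, SE 0.15, limma adjusted p = 0.0103). At chr12:87720554-87721220 it went from 600, 657 and 597 bp to 221, 240 and 165 bp. The regions chr8:60478477-60479218 (507, 586 and 654 bp against 164, 212 and 228 bp) and chr15:51497330-51498047 (501, 699 and 652 bp against 261, 176 and 174 bp) followed the same course. All 4 were also lowered in rank.

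Summits mostly stayed where they were. In single-peak regions the median absolute difference between the mean summits of the groups was 18 bp, with a 90th percentile of 62.3 bp. The median summit distance of library pairs was 24 to 29 bp between treatments, against 24 to 27 bp within DMSO and 26 to 28 bp within WX-02-23. Raised and lowered regions had median differences of 25.3 and 24 bp. Against this background 42 of 50853 summits (0.0826%) moved (limma adjusted p under 0.05), 22 towards higher coordinates (0.0433%) and 20 towards lower ones (0.0393%), by 138 to 867 bp with a median of 304.3 bp. Their regions were broad, with a median width of 869 bp against 518 bp over all single-peak regions. Of the 42, 6 were also called for rank and none for width. Over all regions tested, 4.60% were called for rank, and 0.151% wider and 0.0846% narrower for width. With width calls that rare, none among 42 tells little. Without WX-02-23 replicate 3 the count of moved summits was 71.

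The 6 named regions are those with the widest gap between the groups' summits, so they show the largest shifts. None of the 6 passed the test on width. At chr9:25677379-25678787 the summit lay 1134, 1137 and 1140 bp from the region's start in DMSO replicates 1 to 3 and 272, 267 and 271 bp from it in WX-02-23 replicates 1 to 3 (difference -867 bp, SE 10.4, limma adjusted p = 3.01e-05). Widths of 1357 to 1376 bp in DMSO and 1303 to 1385 bp with WX-02-23 overlapped. The summit pileup was 80, 91 and 98 fragments against 92, 76 and 81. WX-02-43 replicates 1 and 3 had their summits at 270 and 277 bp, as with WX-02-23, and replicate 2 at 1139 bp, as in DMSO.

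At chr12:26121234-26122598 the summit moved from 367, 368 and 420 bp to 1015, 1035 and 975 bp, and strength rose from 30, 39 and 39 fragments to 79, 65 and 70. Its rank passed as well (limma adjusted p = 1.7e-05). At chr2:227243466-227244697 the summit moved from 262, 249 and 249 bp to 890, 884 and 883 bp, with 45, 45 and 51 fragments rising to 76, 64 and 68 (limma adjusted p for the rank = 0.00336). The WX-02-43 summits there, at 875, 875 and 866 bp, lay with those of WX-02-23. In the remaining 3 named regions, chr7:111390097-111391373, chr12:104612973-104614475 and chr20:5099862-5100974, the shifts were 620.7, -597.3 and -544.7 bp. None of these 3 passed the rank test, and the WX-02-43 summits lay with those of DMSO. A summit that switches between separate high points gives values in clusters, which the linear model does not describe well.

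**Figure D5:**
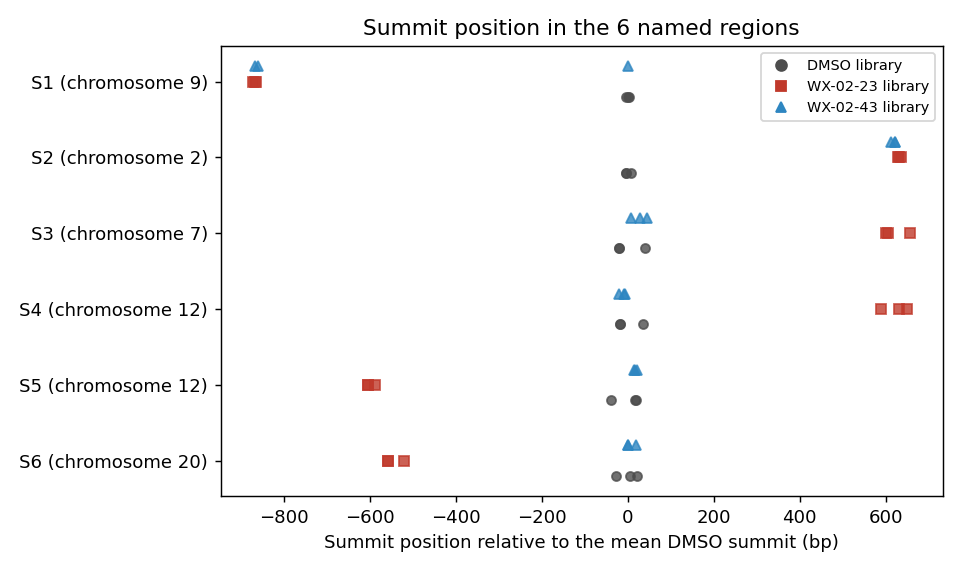
Summit position in bp relative to the mean DMSO summit (horizontal axis) for the 6 named regions, with 1 point per library for DMSO (grey circles), WX-02-23 (red squares) and WX-02-43 (blue triangles). The mean WX-02-23 summits lie between -867 and 632.3 bp from the DMSO mean, and WX-02-43 lies with DMSO in S3 to S6, with WX-02-23 in S2 and is split in S1.

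WX-02-43, the other stereoprobe, given at the same dose and time, allowed a direct comparison in the 59799 of these regions that all 9 lists hold. In 1 limma fit of the 3 groups, WX-02-23 was higher than WX-02-43 in 902 regions (1.51%) and lower in 1584 (2.65%), while WX-02-43 was higher than DMSO in 13 (0.0217%) and lower in 18 (0.0301%). In the same fit, WX-02-23 was higher than DMSO in 1511 regions (2.53%) and lower in 1508 (2.52%). With both comparisons of WX-02-43 adjusted together, the counts were 664 and 1305 against WX-02-23, and 171 and 109 against DMSO. A region that misses the threshold is not shown to be alike with WX-02-43 and DMSO.

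At the regions WX-02-23 raised, WX-02-43 stood between it and DMSO, and at those it lowered, WX-02-43 stood near DMSO. Of the raised regions, 1526 were held by all 9 lists. Their median percentile was 26.3 to 28.1 in DMSO libraries, 37.1 to 38 in WX-02-43 libraries and 61.4 to 63.1 in WX-02-23 libraries, without overlap between groups. WX-02-23 exceeded WX-02-43 in 574 of the 1526 by the test, and WX-02-43 exceeded DMSO in 9 and was below it in 1. Of the lowered regions, 1284 were held by all 9 lists, with median percentiles of 62.3 to 62.9 in DMSO, 60.2 to 60.3 in WX-02-43 and 25.9 to 29.1 in WX-02-23. WX-02-23 was below WX-02-43 in 909 of these, and WX-02-43 was called above DMSO in 0 and below it in 0 (limma; 15 and 106 at an unadjusted p under 0.05, against 474 and 17 in the raised regions). The regions were chosen on the DMSO and WX-02-23 libraries, which these comparisons share. The separation of DMSO and WX-02-23 is therefore built in, and a place for WX-02-43 between them is partly so. The median score difference of WX-02-43 minus DMSO was 0.277 in the raised and -0.0676 in the lowered regions, against -0.00209 over all 59799, and the difference between these medians was not tested.

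At single regions the values were as follows. At chr5:135830365-135831111 the WX-02-43 summits held 38, 48 and 38 fragments, within the DMSO values, and differed from WX-02-23 by a score of -2.29 (limma adjusted p = 3.77e-10). At chr1:249217569-249218125 they held 11, 11 and 15 fragments, also as in DMSO (score difference from WX-02-23 2.6, limma adjusted p = 5.03e-05). At chr13:44926435-44927144 they held 19, 20 and 25, overlapping the upper end of DMSO, with a score 1.05 above DMSO that did not pass (limma adjusted p = 0.373) and 1.41 below WX-02-23 that did (adjusted p = 0.0168, limma). All 10 named lowered regions passed the test between the stereoprobes. Of the 10 named raised regions, 6 were held by all WX-02-43 lists and 5 of these passed. Over all 59799 regions in this test, WX-02-23 was lower in 1584 (2.65%) and higher in 902 (1.51%). The named regions were chosen for a wide gap between WX-02-23 and DMSO, and the same WX-02-23 libraries enter this test. Passing it is therefore partly built in, and the counts of named regions are a description only.

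The surroundings of changed regions were described by what lay within 50 kb. A region held by 3 WX-02-23 lists and no DMSO list lay within 50 kb of 219 of 1611 raised regions (13.6%), 119 of 1290 lowered regions (9.22%) and 5104 of all tested regions (8.09%). A region with the opposite pattern lay within 50 kb of 73 raised (4.53%), 77 lowered (5.97%) and 2715 of all regions (4.3%). Another raised region was that close to 157 raised regions (9.75%), 114 lowered regions (8.84%) and 6.42% of all. Another lowered region was that close to 115 raised regions (7.14%), 109 lowered regions (8.45%) and 5.79% of all. For scale, 84.3% of raised and 87.7% of lowered regions had another shared region within 50 kb, against 89.5% of all. These shares are a description, with no test.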

How the data were processed

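ATAC-seq peak lists of 9 libraries were used, 6 of them for the comparison. The submitters' processing notes name Bowtie2, hg19 and MACS2. Their versions, their settings, any read shift and any removal of duplicates were not given in the sources used here. The authors' deposited lists, called on 1 library each, hold per peak an interval, a summit, a fold enrichment over local background (a ratio), a −log10 p, a −log10 q and a score, which was not used. These per-peak values were used as the authors gave them. Chromosome Y was left out.

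Intervals of the 6 lists sharing at least 1 bp were merged. The peak with the highest −log10 p gave a library's values in a region. Fold and p were solved together for a whole-number summit pileup, which matched the deposited −log10 p within 0.002 for 100% of summits after rounding, against at most 1.34% with shuffled p. The solution took fold as pileup plus 1 over background plus 1, and p as a Poisson tail. limma 3.58.1 (R 4.3.3; eBayes with trend and robust settings, no trend for summits) tested normal scores of ranks over regions held by all 6, centred log2 fold, centred log2 width and summit position, with Benjamini-Hochberg adjustment over all regions tested and a threshold of 0.05. Groups were taken from the sample titles. Single values were tested by exact permutation (scipy 1.17.1), adjusted over 4 measures.

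Named regions were the 10 raised and 10 lowered with the largest gap between groups in score, the first 4 wider and 4 narrower by gap, the first 6 moved summits by gap, and the first 4 per direction held by all 3 lists of one group and 1 of the other, by lowest percentile. Those named for rank came from called regions whose groups did not overlap. Regions and rules were chosen with earlier results of these data known. Replicate numbers are shared by the groups, but deviations of same-numbered libraries correlated at -0.015, 0.003 and -0.008, so they were not treated as pairs. A genome and annotation of hg19 were not used here, so the planned sequence words and gene lists were not analysed. Alternatives are named in the closing section.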

Additional observations from a re-analysis of the deposited data

How the results depend on the processing

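All alternatives were planned except summit fragments, added after seeing the data. Regions below the calling threshold in any library have no strength value there, and standard errors were largest in the weakest decile. Causes of the changes below were not tested. For rank, 987 regions were raised and 819 lowered where peaks had to cover 50% of a region, 373 and 303 without trend or robust settings, and 2803 and 2098 with log2 summit fragments. Whole-list ranks gave 568 lowered. Fold gave 66 higher and 49 lower without centring and 152 and 133 with 50% covered. Width gave 0 wider and 0 narrower without centring, 32 and 16 in equal-length lists of 81962 peaks, and 46 and 21 with −log10 q of at least 5. Summit calls numbered 107 over all shared regions. With whole-list ranks, WX-02-23 was lower than DMSO in 697 regions of the 9-library fit, higher than WX-02-43 in 535 and lower in 759, and WX-02-43 was higher than DMSO in 1 and lower in 8. With −log10 q of at least 5 the last pair was 6 and 11. Equal-length lists gave 1464 regions with 3 DMSO and no WX-02-23 list and 3486 with 2 DMSO and 3 WX-02-23 lists. The difference in median fold reversed to 0.0839 and that in median width to 9.5 bp in equal-length lists, and median width to 4.33 bp with −log10 q of at least 5 (exact permutation p = 0.9, 0.7 and 0.4). The replicate numbers did not pair the samples. A replicate block gave 1094 higher and 1027 lower for fold, 536 wider and 409 narrower, and 1 moved summit. For rank it gave 1810 and 1467, within 1.5 times the main counts. Without each library in turn, counts ran from 895 to 1380 raised and 760 to 1031 lowered, from 276 to 549 and 161 to 445 for fold, from 0 to 51 wider and 0 to 24 narrower, and from 52 to 71 moved summits. The group difference ran from -0.28 to -0.061 in median fold, -5.67 to -0.167 bp in median width and 416.7 to 9955 in peak number. In peaks per region it ran from -0.00559 to 0.00939, with its sign reversed without DMSO replicate 3 (-0.00559), WX-02-23 replicate 2 (-0.00306) or replicate 3 (-0.00204), around 0.00143. Most of the 20 regions named for rank were not tested with 50% covered, in equal-length lists or with −log10 q of at least 5. Where they were tested, they kept direction and call in all 123 values under other settings and all 120 without a library. Those named for width lost the call in 8 of 32 and 19 of 48 such values, and those named for summit in 5 of 18, each under the replicate block, and 0 of 36, with no change of direction.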

Other observations

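Few of the strongest peaks passed the test. The 3 raised and 3 lowered regions of highest mean strength were picked after their values were seen. At chr7:23884400-23885104 the percentile was 99, 97.3 and 99.6 in DMSO replicates 1 to 3 and 99.9, 99.8 and 99.8 in WX-02-23 replicates 1 to 3, with 92, 90 and 116 fragments against 123, 108 and 108 (limma adjusted p = 0.0467). The fragments of the groups overlapped. At chr12:109084951-109086052 and chr17:7909228-7909980 folds of 14.4 to 15.4 and 15.9 to 17.5 in DMSO stood against 16.7 to 17 and 18.1 to 19.1 with WX-02-23. Among lowered regions, chr1:196960767-196961819 went from 110, 107 and 127 fragments to 93, 95 and 95 (limma adjusted p for the rank = 0.00683), and chr1:100714812-100715872 from 112, 120 and 125 to 105, 98 and 101. At chr2:74425359-74426546 the folds were 14.3, 14.3 and 13.7 in DMSO and 12.7, 12 and 12.6 with WX-02-23. None of the 6 passed the test on fold enrichment (limma adjusted p 0.304 to 0.84).

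Calls were spread over all chromosomes at unequal shares. Chromosome 8 had the highest share of raised regions (115 of 2781, 4.14%), followed by chromosome 4 (118 of 2991, 3.95%) and chromosome 18 (44 of 1288, 3.42%). Chromosome 19 had the lowest share in both directions, with 13 of 2848 regions raised (0.456%) and 17 lowered (0.597%). Chromosome 22 followed for raised regions, with 11 of 1288 (0.854%). The highest share of lowered regions was on chromosome 13 (49 of 1567, 3.13%). Raised regions made up 65.6% of the calls on chromosome 4 and 35.5% on chromosome 22, where calls are few. Strength differed between chromosomes too. On chromosome 19, 17.5% of the tested regions were in the strongest decile and 41.2% in deciles 3 to 7, against 8.09% and 52.7% on chromosome 8. The part of this in the shares of calls was not tested.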
